A study of Rattus norvegicus with 12 samples.

Results

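The Muribaculaceae are a family of Bacteroidales, and 553 of the 7238 bacterial and archaeal amplicon sequence variants (ASVs) of this rat faecal survey carried that family name in their lineage. An ASV is one distinct 16S rRNA gene sequence read from a sample, and 16S is a ribosomal gene whose sequence differs between bacterial taxa. Members were taken as every row of the deposited count table whose lineage names the family, with no use of the counts. All 553 were placed in the order Bacteroidales. At the genus level 552 repeat the family name and 1 is Muribaculum, and Duncaniella, Paramuribaculum and Sodaliphilus name 0 rows of the table. At the species level 321 members are an uncultured bacterium, 220 have no name and 12 have another name. Lineages therefore leave most members without a name of their own, and all are numbered here from ASV 1 downwards by mean share of all reads over the 12 libraries.

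Muribaculaceae are strict anaerobes and among the most abundant bacteria of the rodent large intestine. They ferment plant fibre, starch and the glycans of host mucus, and they release acetate, propionate and succinate. Most of their lineages have never been cultured, so sequence variants are often the finest level at which they can be followed.

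The study collected faeces from rats to compare gut bacteria among groups in which Tet, the plant alkaloid tetrandrine, was given after SAH (subarachnoid haemorrhage, bleeding into the space around the brain). The labels give 4 groups of 3 libraries. These are Sham, SAH, SAH+Tet (the Tet group) and SAH+Tet+ABX (the ABX group), where ABX is read as antibiotics, the usual sense of an abbreviation that the labels do not spell out. All groups but Sham carry SAH, and both Tet groups carry SAH and Tet, so ABX was compared only on top of SAH and Tet. The sources used here give no rat strain, sex, age, SAH procedure, antibiotic name, dose or time. The titles of the SAH+Tet+ABX libraries abbreviate Tet and ABX alone, and their treatment field adds SAH. A second treatment field, the same for all libraries, names a cell culture protocol that has no place in faecal DNA and was not used. Nothing in the labels says that the 3 libraries of a group came from 3 animals, so p-values measure the spread between libraries.

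Library totals were 211450 to 248285 reads in 5 libraries, called the lower depth class, and 448795 to 531426 in the other 7, the higher class. The lower class holds the whole ABX group, SAH+Tet 3 and SAH 1, while the labels' batch field is the same for all 12. Muribaculaceae took 20961 to 80440 reads per library, which puts the 95% Wilson interval of each summed share within 0.192 percentage points of its value. Intervals and floors cover counting error only, since reads of amplified DNA are not independent molecules. All values are shares of a library's reads, so more cells of a family and fewer cells of the others cannot be told apart.

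The family took a mean of 9.77% of all reads in Sham, 13.8% in SAH and 12.5% with Tet, and its highest shares were in 2 of the 3 libraries with ABX. It was 11.6%, 7.07% and 10.6% of all reads in Sham 1, 2 and 3, with a mean of 9.77% ± 2.40 (SD, n = 3). It was 12.7%, 13.4% and 15.3% in SAH, with a mean of 13.8% ± 1.34 (SD, n = 3). It was 11.8%, 8.52% and 17.1% in SAH+Tet, with a mean of 12.5% ± 4.34 (SD, n = 3). The SAH and Sham libraries did not overlap, and the SAH+Tet libraries spanned nearly the whole range of both. With ABX the shares were 9.91%, 34.3% and 31.0%, with a mean of 25.1% ± 13.3 (SD, n = 3). SAH+Tet+ABX 2 and 3 lay above all other libraries, and SAH+Tet+ABX 1 lay inside the SAH+Tet range, so these groups overlap.

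Counts summed to families were tested with edgeR's quasi-likelihood test, with Benjamini-Hochberg adjustment over all 92 families tested and a threshold of 0.05. For SAH against Sham the Muribaculaceae differed by a log2 fold change of 0.68 ± 0.43 (SE), which did not pass (edgeR adjusted p = 0.365). That direction was not kept by limma on centred log-ratio values, where the difference was -0.11 (adjusted p = 0.953). For SAH+Tet against SAH the difference was -0.23 ± 0.43 (SE; edgeR adjusted p = 0.868). In both comparisons edgeR called 0 of the 92 families, 0% of those tested. Within the higher depth class the mean share was 14.3% in 2 SAH libraries against 9.77% in 3 Sham libraries, and 10.2% in 2 SAH+Tet libraries against 14.3% in those SAH libraries.

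With ABX the family rose by a log2 fold change of 1.51 ± 0.52 (SE) over SAH+Tet, with an edgeR adjusted p of 0.0492. It was 1 of 5 families called higher, 5.43% of the 92 tested, and 28 families (30.4%) were called in either direction. The call rests on the libraries used. The adjusted p was 0.122 without SAH+Tet 1, 0.140 without SAH+Tet 2, 0.0573 without SAH+Tet 3, 0.164 without SAH+Tet+ABX 2 and 0.147 without SAH+Tet+ABX 3, and 0.00503 without SAH+Tet+ABX 1. With depth class as a block it was 0.227, and the fold change was then 1.14. By limma on centred log-ratio values the difference was 3.84 (adjusted p = 0.0122). Within the lower depth class, 3 SAH+Tet+ABX libraries averaged 25.1% and the 1 SAH+Tet library held 17.1%. The edgeR test of any difference among the 4 groups gave an adjusted p of 0.0495 for the family, with 36 of 92 families called (39.1%). Without SAH+Tet+ABX 1 that value was 0.00625. It was not past the threshold without any other single library: 0.0899 to 0.109 without 1 of the Sham libraries, 0.0556 to 0.0895 without 1 of SAH, 0.0576 to 0.0928 without 1 of SAH+Tet, 0.254 without SAH+Tet+ABX 2 and 0.223 without SAH+Tet+ABX 3.

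No library held more than 299 of the 553 variants, and ABX libraries held the fewest on average. To compare libraries of unequal depth, the number of ASVs was computed as the number expected in a random draw of 211450 reads, the lowest library total. It was 186, 191 and 170.3 in Sham (mean 182 ± 10.8, SD, n = 3) and 138, 291 and 241 in SAH (mean 223 ± 77.9, SD, n = 3). It was 228, 219 and 119.8 in SAH+Tet (mean 189 ± 60.1, SD, n = 3) and 82.0, 135 and 127 in SAH+Tet+ABX (mean 115 ± 28.6, SD, n = 3). SAH+Tet 3 lay within the range of the ABX libraries. The count moved with depth class even at equal depth: the 5 libraries of the lower class held 82.0 to 138 variants and the 7 of the higher class 170.3 to 291. Its part in the difference was not tested.

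ASVs outside the family followed another course. At the same depth they numbered 2089 ± 72.7 in Sham, 1532 ± 445 in SAH, 1877 ± 582 with Tet and 459 ± 88.6 with ABX (SD, n = 3 each). Here the lower depth class itself was split, with 1027 in SAH 1 and 1207 in SAH+Tet 3 against 358, 525 and 493 in the ABX libraries. Of all ASVs detected at each library's full depth, Muribaculaceae made up 8.02% ± 0.713 in Sham, 12.5% ± 0.699 in SAH, 9.03% ± 0.0544 with Tet and 19.9% ± 1.07 with ABX. The SAH libraries, at 11.9% to 13.2%, did not overlap the Sham libraries at 7.20% to 8.48% or the SAH+Tet libraries at 8.97% to 9.07%. The ABX libraries, at 18.6% to 20.5%, lay above all others. With 3 libraries against 3, the smallest exact two-sided permutation p for such a single value is 0.10, so no test of it was run.

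**Figure D1:**
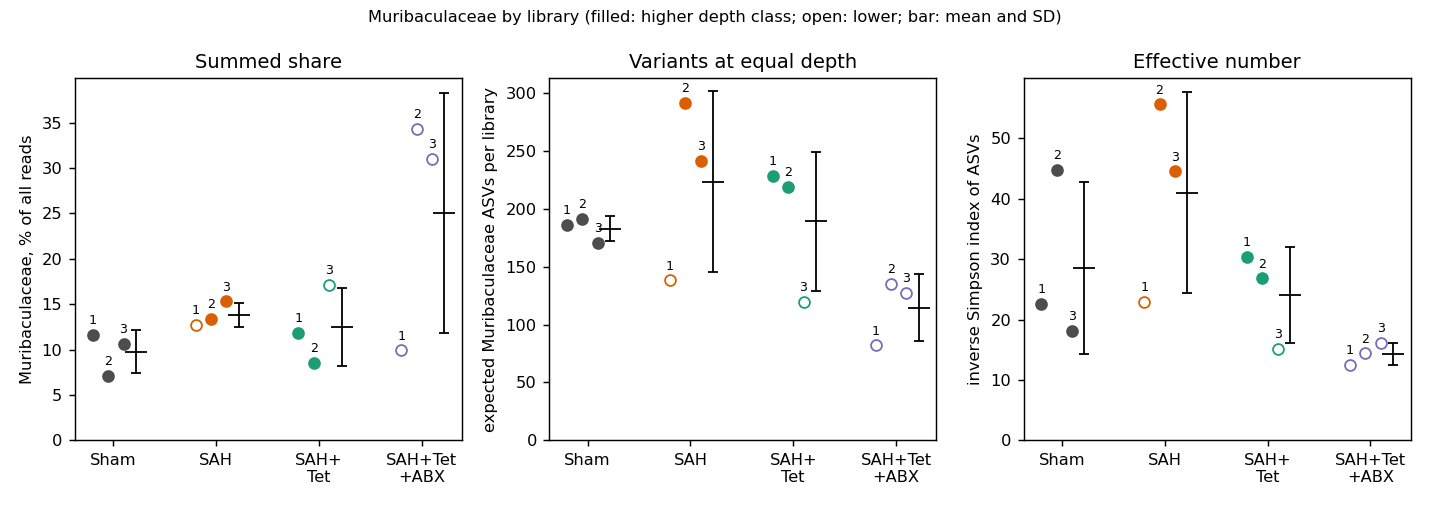
Points show each of the 12 libraries by group: the family's share of all reads in percent, its ASVs expected in 211450 reads, and the inverse Simpson index of its ASVs. Bars show the mean and SD of 3 libraries and open points the lower depth class; SAH+Tet+ABX 2 and 3 lie above 30% in share, while open points lie lowest in number of ASVs.

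Dominance within the family was moderate everywhere, with the highest group means with ABX. The leading ASV held 6.97% to 12.9% of the family's reads in Sham, 7.07% to 13.4% in SAH, 8.80% to 12.9% with Tet and 12.9% to 18.2% with ABX. The 10 leading ASVs of a library together held 51.2% ± 11.4 in Sham, 40.7% ± 8.13 in SAH, 56.4% ± 9.68 with Tet and 65.5% ± 4.10 with ABX (SD, n = 3 each). All groups overlap in the leading ASV's share, where SAH 1 at 13.4% lay above SAH+Tet+ABX 3 at 12.9%. For the 10 leading ASVs, SAH+Tet 3 at 67.4% lay above SAH+Tet+ABX 2 and 3 at 65.3% and 61.5%. The inverse Simpson index, the number of equally common ASVs that would give the same dominance, was 22.6, 44.7 and 18.1 in Sham and 22.9, 55.6 and 44.5 in SAH. With Tet it was 30.3, 26.8 and 15.2, and with ABX 12.5, 14.4 and 16.1. SAH+Tet 3, of the lower depth class, lay among the ABX libraries in this index, and the other 8 libraries without ABX lay above them. To reach 50% of the family's reads took 8, 17 and 6 ASVs in Sham, 11, 23 and 19 in SAH, 11, 9 and 5 with Tet, and 4, 5 and 6 with ABX.

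The identity of the leading variant separated the ABX libraries from the rest. ASV 1 led the family in 8 of the 9 libraries without ABX, and ASV 9 led in SAH+Tet 1, at 8.80% of the family's reads against 8.60% for ASV 1. ASV 2 led in SAH+Tet+ABX 1, ahead of ASV 10 and ASV 14, and ASV 3 led in SAH+Tet+ABX 2 and 3, ahead of ASV 2 and ASV 4. ASV 1, 5 and 6, the leading trio of Sham and SAH, together held 26.6% ± 7.65 of the family's reads in Sham, 21.8% ± 7.95 in SAH, 26.0% ± 5.75 with Tet and 3.74% ± 1.95 with ABX (SD, n = 3 each). ASV 2, 3, 4 and 7 together held 4.89% ± 1.14, 3.27% ± 0.706, 3.37% ± 0.858 and 40.1% ± 11.8 in the same order. These sets were formed from the leading ASVs of the groups, so the contrast between them is a description. Their values did not overlap between libraries with and without ABX: the trio held 15.7% to 32.8% without ABX and 1.62% to 5.44% with it, and the other 4 held 2.54% to 6.08% and 26.5% to 48.0%.

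**Figure D2:**
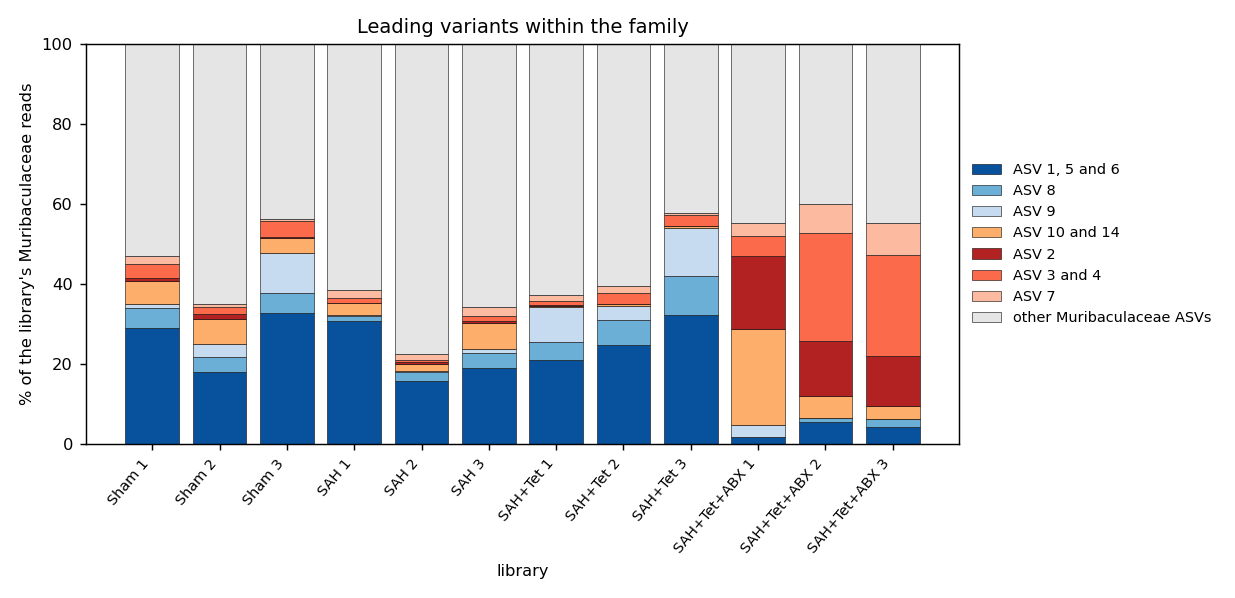
Stacked bars show, for each of the 12 libraries, the percent of Muribaculaceae reads held by named ASVs, with all other members in grey. ASV 1, 5 and 6 (dark blue) fill 15.7% to 32.8% of each bar without ABX and at most 5.44% with it, where ASV 2, 3, 4 and 7 (reds) take 26.5% to 48.0%.

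Most members were rare and few were shared by all libraries. Of the 553, 215 had reads in 1 library alone and held 0.438% of the family's reads on average. Another 29 had reads in all 12 libraries and held 53.8%. By group, 285 members had reads in at least 1 Sham library, 362 in SAH, 304 with Tet and 166 with ABX. All 4 groups shared 85 of them, and in the same order 55, 103, 57 and 50 were seen in 1 group alone. A further 89 were present in each of the 3 groups without ABX and had 0 reads with it.

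Members seen in 1 group of a pair and not in the other held from 1.77% to 28.8% of the family's reads on average. Sham and SAH shared 207 members, 72.6% of those in Sham and 57.2% of those in SAH. SAH and SAH+Tet shared 222, 61.3% of those in SAH and 73.0% of those in SAH+Tet. The 155 members seen in SAH and not in Sham held 12.8% ± 6.76 of the family's reads in SAH (SD, n = 3). The 82 seen in SAH+Tet and not in SAH held 7.91% ± 2.71 in SAH+Tet (SD, n = 3). Outside the family, Sham and SAH shared 44.2% of the ASVs in Sham and 54.4% of those in SAH. SAH and SAH+Tet shared 53.8% of those in SAH and 42.2% of those in SAH+Tet. Of the reads outside the family, ASVs seen in SAH and not in Sham held 23.5% ± 1.57 in SAH. Those seen in SAH+Tet and not in SAH held 20.8% ± 0.861 in SAH+Tet (SD, n = 3 each). SAH+Tet and SAH+Tet+ABX shared 102, 33.6% of those in SAH+Tet and 61.4% of those in SAH+Tet+ABX. The 64 members seen in SAH+Tet+ABX and not in SAH+Tet held 2.32% ± 0.590 of the family's reads there (SD, n = 3). Nearly all of the family's reads in the ABX libraries thus came from members with at least 1 read in SAH+Tet. Some of these were very scarce in SAH+Tet, as was ASV 2 at 0.00153%, 0 and 0.00704% of all reads. The 202 members seen in SAH+Tet and not in SAH+Tet+ABX held 15.5% ± 10.1 of the family's reads in SAH+Tet. In SAH, the 259 members with no reads in SAH+Tet+ABX held 28.8% ± 16.7 (SD, n = 3). Outside the family, ASVs seen in SAH+Tet+ABX and not in SAH+Tet held 27.9% ± 9.45 of those reads, and ASVs seen in SAH+Tet and not in SAH+Tet+ABX held 57.9% ± 1.62. The ABX libraries were all of the lower depth class, which lowers the chance of seeing a rare member, and that part was not tested.

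By Bray-Curtis distance, the family's communities with ABX stood farthest from the others. The Bray-Curtis distance, which is 0 for identical shares within the family and 1 for none in common, averaged 0.326 ± 0.0760 between Sham libraries, 0.396 ± 0.0850 between SAH libraries and 0.329 ± 0.0546 between SAH+Tet libraries (SD over 3 pairs each). Between groups it averaged 0.455 ± 0.0646 for Sham and SAH, 0.474 ± 0.0657 for SAH and SAH+Tet, and 0.394 ± 0.0649 for Sham and SAH+Tet (SD over 9 pairs each). The lowest of these distances between groups lay inside the range found within groups. SAH+Tet and SAH+Tet+ABX were 0.756 ± 0.0218 apart, with a lowest pair of 0.728, above every distance within a group. On presence alone this separation was not kept: the lowest Jaccard distance between those groups was 0.567, and pairs within a group reached 0.679. Among the ABX libraries, 2 and 3 were 0.124 apart, the closest pair of the series within this family, and SAH+Tet+ABX 1 stood up to 0.504 from them.

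**Figure D3:**
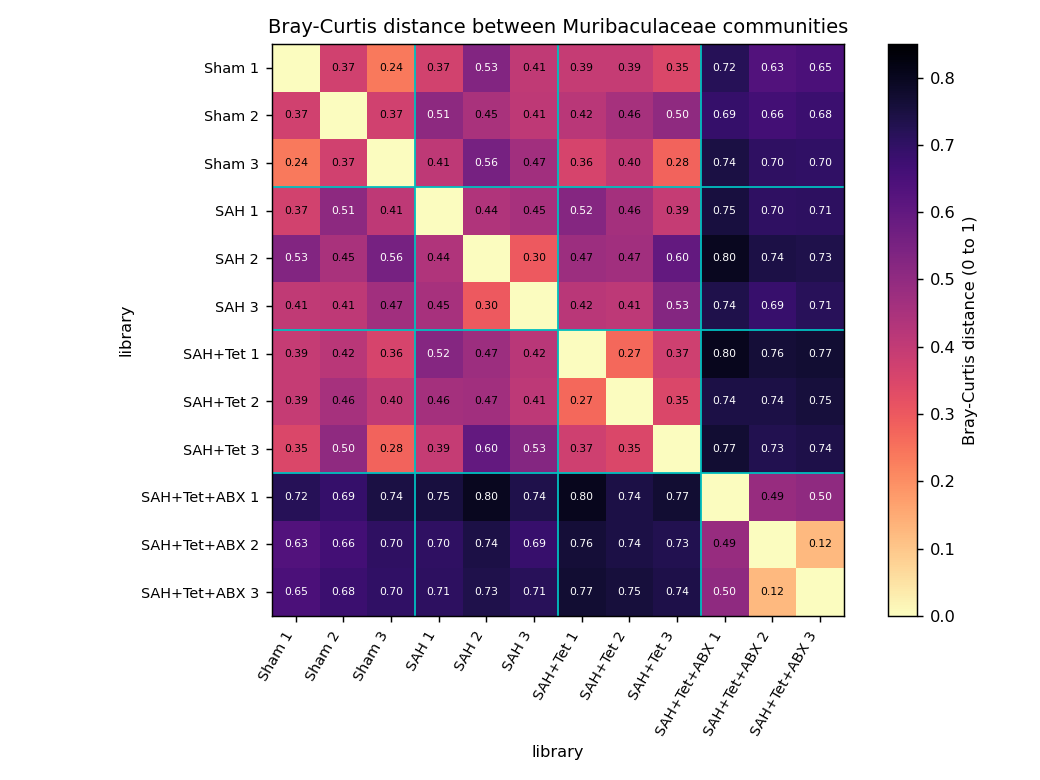
Each cell gives the Bray-Curtis distance (0 to 1) between the Muribaculaceae communities of a pair of libraries, computed from shares within the family, and lines part the 4 groups. The lowest distance between SAH+Tet and SAH+Tet+ABX is 0.728, and the highest within a group is 0.504.

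For SAH against Sham, several variants appeared in all SAH libraries that were absent or scarce in Sham, yet no single ASV passed the test. The edgeR test took in every ASV of the table that reached 10 reads in 3 or more libraries of a fit, and 239 of the 553 members entered the fit of the 9 libraries without ABX. The adjusted p was under 0.05 for 0 of 2283 ASVs (0%), members included. Unadjusted p-values under 0.05 numbered 42 among the members and 553 among all ASVs (24.2%). DESeq2 called 32 members (28 higher, 4 lower) against 17.5% of all ASVs, and limma, run on centred log-ratios, called 23 (20 higher, 3 lower) against 11.8%. Fitted to the Sham and SAH libraries alone, edgeR called 14 members, 8 of them higher, against 18.1% of all ASVs. With no filter on low counts it called 13, all higher, against 2.38%.

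Members leaned towards SAH where the table as a whole leaned towards Sham. The 3 SAH libraries lay above the 3 Sham libraries for 28 of the 239 members (11.7%), against 7.01% of all ASVs tested. They lay below for 17 members (7.11%), against 23.7% of all ASVs. Both counts include members seen in 1 group alone, such as ASV 175 in SAH and ASV 234 in Sham. Those passed the filter on low counts only through that group, so their lack of overlap was fixed by the filter. The median log2 fold change was 1.08 over the members and -0.67 over all ASVs, which became 0.85 and -0.87 when libraries were scaled by their totals alone.

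ASV 48 was the clearest of the variants high in SAH. It had 0 reads in each Sham library and made up 0.278%, 0.216% and 0.187% of reads in SAH 1, 2 and 3. That is at least 382-fold higher in SAH, computed against a floor of 3 reads per Sham library, with an edgeR adjusted p of 0.110. In SAH+Tet it was back at 0.0251%, 0.00193% and 0.00836%, below all SAH libraries. It ranked 11th in the family by mean share in SAH and 106th in SAH+Tet.

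ASV 94 had the same form at a lower level, with 0 reads in Sham and 0.104%, 0.0783% and 0.0575% in SAH, at least 135-fold higher (edgeR adjusted p = 0.110). ASV 28 had 0.0284%, 0.0494% and 0.0273% in Sham and 0.315%, 0.148% and 0.204% in SAH, a log2 fold change of 2.69 ± 0.94 (SE; edgeR adjusted p = 0.136). ASV 25 had 0.0788%, 0.0780% and 0.0750% in Sham and 0.307%, 0.406% and 0.159% in SAH. In each of these the groups did not overlap. ASV 79, with reads in 1 Sham library (0.00712%), had 0.0910%, 0.0463% and 0.120% in SAH, and ASV 11 had 0.199%, 0.183% and 0.173% in Sham against 0.270%, 0.435% and 0.243% in SAH. The edgeR adjusted p-values of ASV 11, 25 and 79 were 0.598, 0.593 and 0.196.

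In the other direction, ASV 16 and ASV 18 were common in Sham and scarce in SAH. ASV 16 made up 0.615%, 0.163% and 0.273% in Sham and 0.0173%, 0.00978% and 0.0372% in SAH, a log2 fold change of -3.86 ± 2.21 (SE; edgeR adjusted p = 0.314). ASV 18 made up 0.624%, 0.154% and 0.277% in Sham, and in SAH it had reads in SAH 3 alone, at 0.0443%. They ranked 7th and 6th in the family by mean share in Sham, and 118th and 140th in SAH. ASV 55 had 0.121%, 0.0413% and 0.0502% in Sham and 0.0189%, 0.00677% and 0.0152% in SAH, ASV 49 differed by a ratio of mean shares of 0.580, and ASV 81 by 0.230. For ASV 49 limma on centred log-ratio values gave a difference of 0.12, opposite in sign to the -0.56 from edgeR. ASV 160 and ASV 234 had reads in all Sham libraries and 0 in all SAH libraries, at least 18.8-fold and 15.0-fold lower. None of these passed the test (edgeR adjusted p from 0.110 to 0.819).

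With Tet after SAH, ASV 9, 27 and 34 were among the variants higher without overlap, and ASV 10, 14 and 48 among those lower without overlap, and again none passed. The adjusted p from edgeR was under 0.05 for 0 of 2283 ASVs (0%), and unadjusted p-values under 0.05 numbered 32 among the members and 474 among all ASVs (20.8%). DESeq2 called 25 members, 5 higher and 20 lower, against 12.7% of all ASVs. The centred log-ratio fit in limma called 8, of which 5 lower, against 4.91%, and edgeR with no filter called 5, against 1.34%. The libraries of SAH+Tet lay above those of SAH for 12 of the 239 members (5.02%, against 9.81% of all ASVs) and below for 23 (9.62%, against 6.22%). The 23 include ASV 175, seen in SAH alone, which passed the filter on low counts only through SAH. The median log2 fold change was -0.75 over the members and 0.15 over all ASVs. This comparison shares its SAH libraries with that of SAH against Sham, so values that were high in SAH enter both.

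ASV 9 made up 0.0467%, 0.0544% and 0.143% in SAH and 1.04%, 0.304% and 2.05% in SAH+Tet. The difference was a log2 fold change of 3.39 ± 1.23 (SE; edgeR adjusted p = 0.184), with no overlap between the groups. Sham held 0.0996%, 0.234% and 1.05% and spanned both. By mean share in the family it ranked 4th in Sham, 40th in SAH, 2nd with Tet and 31st with ABX.

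ASV 27 and ASV 34 had 0 reads in all SAH libraries and even shares in SAH+Tet. ASV 27 made up 0.412%, 0.425% and 0.489% there, at least 543-fold higher than the floor in SAH, and 0.0186% in Sham 1 alone of the Sham libraries. ASV 34 made up 0.239%, 0.353% and 0.348%, at least 385-fold higher, and had 0 reads in Sham. Both had an edgeR adjusted p of 0.179. In SAH+Tet+ABX they had reads in libraries 1 and 2 and 0 in library 3. ASV 22 and ASV 30 were also higher without overlap: ASV 22 had reads in SAH 3 alone (0.00312%) and 0.0308%, 0.00503% and 0.157% in SAH+Tet, and ASV 30 differed by a ratio of mean shares of 2.31 (edgeR adjusted p = 0.293 and 0.603).

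ASV 10 and ASV 14 went together. ASV 10 made up 0.219%, 0.134% and 0.607% in SAH and 0.0249%, 0.0377% and 0.0405% in SAH+Tet, a log2 fold change of -3.38 ± 1.04 (SE; edgeR adjusted p = 0.179). ASV 14 made up 0.147%, 0.0854% and 0.368% in SAH and 0.0138%, 0.0153% and 0.0273% in SAH+Tet, a log2 fold change of -3.64 ± 1.05 (SE; edgeR adjusted p = 0.179). Both were also above every SAH+Tet library in each Sham library, where ASV 10 held 0.434%, 0.272% and 0.256%. ASV 11 and ASV 29 were lower without overlap, at ratios of mean shares of 0.545 and 0.361 (edgeR adjusted p = 0.612 and 0.508). ASV 120 and ASV 175 had reads in all SAH libraries and 0 in all SAH+Tet libraries, at least 42.9-fold and 29.9-fold lower (edgeR adjusted p = 0.179 each).

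**Figure D4:**
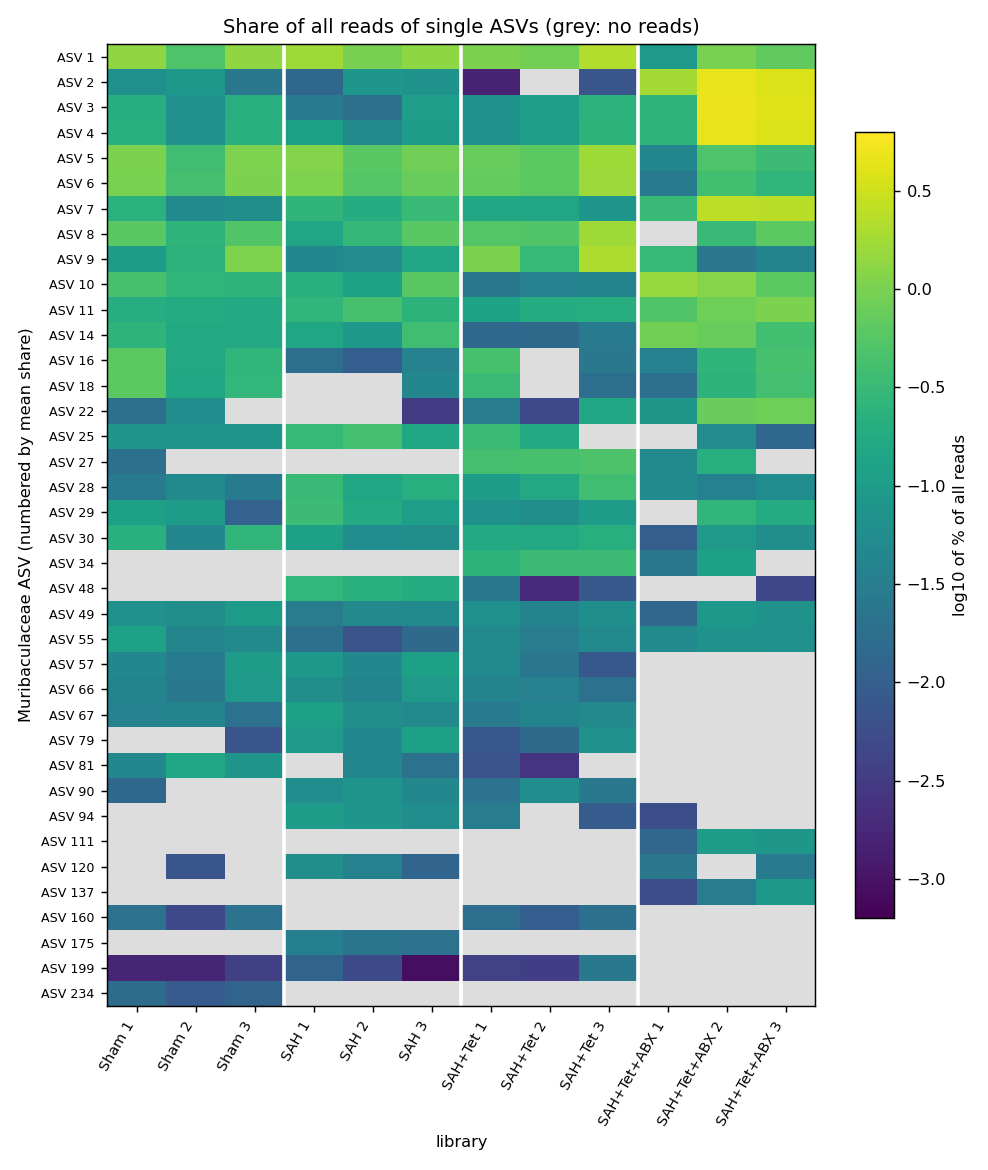
Colour gives the log10 of each named ASV's percent of all reads in the 12 libraries, with grey for no reads, ASVs in order of mean share and white lines between groups. ASV 48 and ASV 94 are grey in all Sham libraries, ASV 27 and ASV 34 in all SAH libraries, and ASV 2 runs from at most 0.0845% without ABX to 1.80% or more with it.

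With ABX on top of SAH and Tet, 3 members rose and 8 fell among the 253 that entered the 12-library fit. Calls higher made up 1.19% of these members, against 0.585% of the 2394 ASVs tested, and calls lower 3.16%, against 9.73%. In either direction 10.3% of all ASVs were called, and unadjusted p-values under 0.05 numbered 117 among the members and 1264 among all ASVs (52.8%). The number of member calls changed with the libraries: it was 7 without SAH+Tet 1, 5 without SAH+Tet 2, 38 without SAH+Tet 3, 5 without SAH+Tet+ABX 1, 6 without SAH+Tet+ABX 2 and 0 without SAH+Tet+ABX 3. Calls over all ASVs moved too, from 247 of 2394 to 144 of 2160, 146 of 2187, 493 of 2291, 69 of 2341, 79 of 2326 and 0 of 2345 in the same order. Within the lower depth class, with 1 SAH+Tet library, the median log2 fold change was 0.497 over the members and 1.48 over all ASVs. With depth class as a block the number of member calls was 8, against 6.06% of all ASVs. It was 87 by DESeq2 against 36.0%, 38 by limma against 9.77%, 29 with the compared groups alone against 55.2%, 10 with no filter against 3.88% and 7 with library totals against 6.64%.

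ASV 2 rose most of the 3. It had 0.00153%, 0 and 0.00704% of reads in SAH+Tet and 1.80%, 4.72% and 3.87% in SAH+Tet+ABX. The log2 fold change was 9.77 ± 2.04 (SE; edgeR adjusted p = 0.0179). It ranked 34th in the family by mean share in Sham, 60th in SAH, 192nd with Tet and 1st with ABX. In Sham it had 0.0254% to 0.0845% and in SAH 0.0141% to 0.0800%, so SAH+Tet was the group in which it was scarcest. The call was lost without SAH+Tet 1 (adjusted p = 0.0524) and without SAH+Tet+ABX 3 (0.0508), and within the lower depth class the fold change was 8.64 on the log2 scale (0.383).

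ASV 10 and ASV 14 rose as well. ASV 10 made up 1.50%, 1.19% and 0.623% in SAH+Tet+ABX, a log2 fold change of 4.14 ± 1.10 over SAH+Tet (SE; edgeR adjusted p = 0.0405). ASV 14 made up 0.882%, 0.739% and 0.387%, a log2 fold change of 4.37 ± 1.13 (SE; edgeR adjusted p = 0.0384). Every ABX library lay above every other library for ASV 10 and for ASV 14. Without SAH+Tet 1, SAH+Tet 2, SAH+Tet+ABX 1, SAH+Tet+ABX 2 or SAH+Tet+ABX 3 the adjusted p was 0.0825, 0.0662, 0.0668, 0.0854 and 0.0606 for ASV 10 and 0.0780, 0.0718, 0.0587, 0.0773 and 0.0600 for ASV 14. Each lost its call in 8 of 14 alternatives, those 5 included. Their joint share of the family's reads was 24.1% in SAH+Tet+ABX 1 and 5.61% and 3.25% in the other ABX libraries, against 0.449% ± 0.154 in SAH+Tet (SD, n = 3).

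ASV 3 and ASV 4 were about as abundant as ASV 2 in SAH+Tet+ABX 2 and 3, ASV 7 was less so, and none of them passed. ASV 3 made up 0.0712%, 0.109% and 0.233% in SAH+Tet and 0.253%, 4.75% and 4.00% in SAH+Tet+ABX, with a log2 fold change of 3.78 ± 1.32 (SE; edgeR adjusted p = 0.0635). ASV 4 made up 0.0705%, 0.108% and 0.245% and then 0.253%, 4.46% and 3.83% (edgeR adjusted p = 0.0603). ASV 7 made up 0.158%, 0.146% and 0.0796% and then 0.322%, 2.55% and 2.46% (edgeR adjusted p = 0.0769). In all 3 variants SAH+Tet+ABX 1 stood closer to the SAH+Tet libraries than to the other ABX libraries. ASV 11 had 0.522%, 0.829% and 1.04% in the ABX libraries, above all libraries without ABX, at an edgeR adjusted p of 0.238.

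Of the leading trio, ASV 5 and ASV 6 were lower in every ABX library than in any SAH+Tet library. ASV 1 made up 1.01%, 0.895% and 2.20% in SAH+Tet and 0.0889%, 0.989% and 0.666% in SAH+Tet+ABX, and these values overlap (edgeR adjusted p = 0.128). ASV 5 made up 0.733%, 0.609% and 1.69% and then 0.0445%, 0.499% and 0.353% (edgeR adjusted p = 0.0897). ASV 6 made up 0.723%, 0.610% and 1.63% and then 0.0270%, 0.383% and 0.272% (edgeR adjusted p = 0.0730). All of the trio had reads in every ABX library. ASV 9 had 0.303%, 0.0243% and 0.0408% with ABX, below every SAH+Tet library at a log2 fold change of -3.97 ± 1.41 (SE; edgeR adjusted p = 0.0635), and ASV 8 had 0 reads in SAH+Tet+ABX 1 and 0.322% and 0.609% in the others.

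The 8 members that fell had 0 reads in every ABX library. ASV 67, with 0.0284%, 0.0399% and 0.0480% in SAH+Tet, was at least 29.6-fold lower against a floor of 3 reads per ABX library (edgeR adjusted p = 0.0170). ASV 66, with 0.0406%, 0.0346% and 0.0198%, was at least 24.2-fold lower (0.0170 by edgeR), and ASV 57, with 0.0496%, 0.0236% and 0.00792%, at least 20.7-fold (0.0179 by edgeR). Those 3 had reads in all 9 libraries without ABX. Each of the 3 lost its call in 2 of 13 alternatives. Among these was the edgeR fit without SAH+Tet+ABX 3, at adjusted p-values of 0.0508, 0.0508 and 0.0551 in the same order. ASV 160 and ASV 199 were at least 11.8-fold and 8.45-fold lower (0.0333 and 0.0325 by edgeR), and each lost its call in 7 of 13 alternatives. ASV 75, 77 and 205, the remaining ones, were at least 22.1-fold, 12.8-fold and 7.86-fold lower, and each kept its call in 3 of 13 alternatives.

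Over all members tested, 141 of the 253 (55.7%) had 0 reads in every ABX library, against 77.8% of all ASVs tested. The ABX libraries lay above those of SAH+Tet for 31 members (12.3%, against 3.63% of all ASVs) and below for 27 (10.7%, against 19.2%). The median of the log2 ratio of mean shares, with groups of 0 reads set to the floor, was -1.26 over the members and -2.05 over all ASVs. The median fitted log2 fold change was -3.71 over the members and -6.61 over all ASVs. With depth class as a block these medians became 0.199 and -0.786, and by limma 0.526 and -0.322, so the members' direction was not kept. ASV 111 and ASV 137 had 0 reads in all 9 libraries without ABX and reads in all 3 with it. ASV 111 made up 0.0132%, 0.0995% and 0.0833%, at least 76.7-fold above SAH+Tet (edgeR adjusted p = 0.0558), and ASV 137 made up 0.00568%, 0.0299% and 0.0866% (edgeR adjusted p = 0.0603). Both passed the filter on low counts only through the ABX group, so their lack of overlap was fixed by the filter. The 31 members above include them and others seen with ABX alone, which are no separate support for a difference.

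The edgeR test of any difference among the 4 groups called 21 of the 253 members, and 18.0% of all ASVs tested were called. By DESeq2 it was 50 members against 21.2%, by limma 89 against 32.5%, with no filter 71 against 14.1% and with library totals 28 against 17.5%. The 21 called by edgeR include ASV 2, 3 and 4, ASV 57, 66 and 67, and ASV 34 and 48, each at an adjusted p between 0.0410 and 0.0423. Of the 21, ASV 111, 137, 140, 148, 175, 184, 234, 268 and 294 had reads in the libraries of a single group alone. Those passed the filter on low counts only through that group, so their calls are no separate support for a difference. The same edgeR test called 0 members when any 1 of the Sham libraries, SAH 2 or any 1 of the ABX libraries was left out. In each of those fits it also called 0 of all ASVs tested. With depth class as a block it called 0 members and 0 of all 2394 ASVs.

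Among the other Bacteroidales families, variants of Prevotellaceae were nearly all missing with ABX, and Marinifilaceae and Tannerellaceae fell. Prevotellaceae, fibre and glycan fermenters with 237 ASVs in the table, had 78.7 ± 11.9 ASVs in 211450 reads of Sham, 68.3 ± 42.4 in SAH, 76.6 ± 49.6 with Tet and 6.66 ± 1.52 with ABX (SD, n = 3 each). Of their 94 ASVs tested, 92.6% had 0 reads in every ABX library. The Prevotellaceae share of all reads was 6.78% ± 1.67 in SAH+Tet and 4.19% ± 3.06 with ABX, and the difference did not pass (edgeR adjusted p = 0.891). Marinifilaceae had 0 reads in all ABX libraries, against 0.0857% ± 0.0193 in SAH+Tet (edgeR adjusted p = 0.000332), and Tannerellaceae fell to 0.000272% ± 0.000472 from 0.0722% ± 0.0316 (edgeR adjusted p = 0.00347). Bacteroidaceae and Rikenellaceae did not pass in that comparison (edgeR adjusted p = 0.494 and 0.0943). Muribaculaceae made up 57.7% ± 22.1 of the reads of the phylum Bacteroidota in Sham, 62.2% ± 11.3 in SAH, 58.5% ± 13.5 with Tet and 86.1% ± 6.02 with ABX (SD, n = 3 each). The ABX libraries, at 81.1% to 92.8%, lay above all others, which reached 75.0%. The difference between the families' responses was not tested.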

How the data were processed

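Bacterial 16S rRNA gene amplicons were sequenced from rat faeces, 3 libraries in each of 4 groups. The authors deposited whole-number read counts per ASV with a lineage, and the 12 columns of the series table were identical to the per-sample tables. Reads were processed with fastp and cutadapt, per the submitters' processing notes. The amplified region, primers, denoiser and taxonomy reference are not stated in the sources used here. A change in any of them would alter which ASVs exist and which carry the family name. Of 7240 rows, 2 Eukaryota were left out.

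Counts were summed to families or kept as ASVs, kept where 3 or more libraries of the fit reached 10 reads, scaled by TMM and tested with edgeR 4.0.16 (glmQLFit, glmQLFTest) in R 4.3.3, with Benjamini-Hochberg adjustment over all features and a threshold of 0.05. The 9 libraries without ABX gave SAH against Sham and SAH+Tet against SAH, and all 12 gave the rest. DESeq2 1.42.0 and limma 3.58.1 (centred log-ratios after adding 0.5), library totals, no filter, a replicate block, depth class (divided at 300000 reads), the compared groups alone and leaving out each library were alternatives. Members without enough reads for a test enter only the counts of ASVs, shares and distances. Scripts were tested on simulated data. Libraries of a group were not copies of the same counts: within the family, their chi-square per degree of freedom was 46.1 to 226, far above 1. Reads of amplified DNA are not independent, so these values cannot tell separate samples from repeat amplifications of 1 sample.

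The ASVs named are the 10 with the highest mean share, the 3 highest of each group, the leader of each library, and, per comparison and direction, the 5 with the largest difference in mean share among those whose groups did not overlap, the 2 most abundant with 0 reads in 1 group and reads throughout the other, and up to 5 called with the lowest adjusted p. ASV 75, 77, 140, 148, 184, 205, 268 and 294 fall outside this rule and were named after their values were seen, to complete the counts of calls. The members, lists and related families were chosen with earlier results of these data known.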

Additional observations from a re-analysis of the deposited data

How the results depend on the processing

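Depth limits the rare members: a floor of 3 reads is 0.000565% to 0.00142% of a library, and 5 of the 12 libraries have under 300000 reads. For SAH against Sham, where edgeR called 0 members, 32 were called by DESeq2 and 13 with no filter (17.5% and 2.38% of all ASVs). A further 2 settings, limma and the compared groups alone, called 23 and 14 (11.8% and 18.1% of all ASVs). The family's fold change turned to -0.11 in limma. For SAH+Tet against SAH, 25 were called by DESeq2, 5 with no filter and 8 by limma (12.7%, 1.34% and 4.91% of all ASVs). For SAH+Tet+ABX against SAH+Tet, against 11 in the main analysis, the count was 87 by DESeq2 and 7 with library totals (36.0% and 6.64% of all ASVs). It was 38 by limma and 29 with the compared groups alone (9.77% and 55.2% of all ASVs). Without 1 library it was 0 to 38, where calls over all ASVs were 0 to 493. The family's log2 fold change was 1.63 by DESeq2 (adjusted p = 0.0556), 1.01 with library totals (0.0952 by edgeR) and 1.38 with no filter (0.0995 by edgeR). With depth class as a block it was 1.14 (0.227 by edgeR), and with the compared groups alone 1.69 (0.0497 by edgeR). Within the lower depth class, a setting chosen after seeing the data and with 1 SAH+Tet library, it was 1.29. By limma it was 3.84 (adjusted p = 0.0122), and without 1 library it was 1.14 to 1.96. For any difference among groups, members called numbered 50 by DESeq2, 71 with no filter and 89 by limma (21.2%, 14.1% and 32.5% of all ASVs). They numbered 0 with depth class as a block and 0 to 28 without 1 library, where calls over all ASVs were 0 and 0 to 487. The family's adjusted p by edgeR was 0.0996 with library totals, 0.113 with no filter and 0.492 with depth class as a block. DESeq2 and limma gave 0.0340 and 0.0189, and edgeR without 1 library gave 0.00625 to 0.254. The cause of these shifts was not tested.

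Same-numbered libraries of different groups did not deviate together (correlations of -0.208 to 0.215), so the numbers were not taken to pair libraries. With the replicate number as a block, edgeR called 2 members for SAH+Tet+ABX against SAH+Tet (99 of all 2394 ASVs), the family's log2 fold change there was 1.53 (adjusted p = 0.0598), and its adjusted p for any difference was 0.107. Counting only ASVs with at least 10 reads gave 161 in Sham. The exponential of the Shannon index, in place of inverse Simpson, was 53.8 in Sham, 81.7 in SAH, 49.6 with Tet and 28.0 with ABX. Jaccard distances on presence were 0.590 for SAH against Sham, 0.585 for SAH+Tet against SAH and 0.693 between the Tet and ABX groups, and Bray-Curtis on square roots gave 0.597 for the last. For single ASVs, 1 direction turned (ASV 49 for SAH against Sham, 0.12 in limma), 50 values passed the threshold only under an alternative, 69 no longer passed and 511 kept direction and side.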

Other observations

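Some members kept a near-constant ratio to one another while their shares differed widely between libraries. ASV 1 had 1.28 to 2.00 times the reads of ASV 5 in all 12 libraries, although its own share ran from 0.0889% to 2.20%. ASV 5 had 0.884 to 1.65 times the reads of ASV 6, and ASV 10 had 1.48 to 2.47 times those of ASV 14, in all 12 libraries too. Ratios were computed for 448 pairs of named ASVs over libraries with at least 10 reads of both. In 4 pairs the highest ratio was under 2 times the lowest, and the median over pairs was 61.2 times. These pairs were singled out after their values were seen. An ASV is a gene sequence, and the counts do not show whether such a pair comes from 1 genome or from several.

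The members found in 1 library only numbered from 4 in SAH+Tet+ABX 1 to 40 in SAH 2, and they held 0.119% to 1.01% of a library's Muribaculaceae reads.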
